A study of Mus musculus with 2 samples.

Results

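The insulin-like growth factor (IGF) axis is represented here by 10 genes: the ligands Igf1 and Igf2, the receptors Igf1r and Igf2r, the binding proteins Igfbp2, Igfbp3, Igfbp4 and Igfbp5, and the adaptors Irs1 and Irs2. All probes whose platform symbol equals one of these names were taken, which gave 20 probes for 10 of the 19057 genes with a named probe. The genes were chosen with earlier results of these arrays in view, so the differences below describe the arrays and no test was made of them. Gene expression was measured in wild type mouse lens at embryonic stage E12.5, in 1 sample of lens fibers and 1 sample of lens epithelium. Total RNA was labelled with biotin and hybridised to 1 Illumina array per sample. No strain, number of embryos or way of separating the tissues is given in the sources used here. There were no replicates, so no value below has a standard deviation, standard error or p-value, and having 1 array per tissue limits the precision.

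IGF1 and IGF2 are secreted peptides related to insulin. Both signal through IGF1R, a receptor tyrosine kinase that passes its signal to the adaptors IRS1, IRS2 and SHC1 and from there to the PI3K-Akt and Ras-MAP kinase pathways. IGF2R has no kinase. It binds IGF2 and carries it to lysosomes, and also carries lysosomal enzymes. The binding proteins hold IGFs outside the cell, and proteases release them. In mouse, Igf2 is expressed from the paternal allele and Igf2r from the maternal allele in most tissues. In the chick lens, IGFs and insulin are known to promote the elongation of epithelial cells into fibers. The lens epithelium is the dividing layer at the front of the lens, and the fibers are the elongated cells behind it that have left the cell cycle.

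In fibers, the ligand gene Igf2 and the adaptor gene Irs1 were higher, by 10.7-fold and 15.1-fold. In epithelium, the binding protein gene Igfbp5 was 16.0-fold higher, Igf2r 3.68-fold, Igf1r 3.70-fold and Igfbp4 at least 3.13-fold. Igfbp3 was above the floor in fibers only, and Igf1, Igfbp2 and Irs2 were below the floor on both arrays. Thus, of the 10 genes, 7 were measured, of which 2 reached 2-fold towards fibers and 4 reached 2-fold towards epithelium. Of these 4, only Igfbp5 had more than 1 probe towards epithelium. The count towards epithelium was 2 with the mean of all probes, and 2 with the floor at the 99th percentile. Among all 6451 genes measured on at least 1 array, 15.6% reached 2-fold towards fibers and 19% towards epithelium. In numbers, these were 1007 genes towards fibers and 1225 towards epithelium. With 1 common floor for both arrays they were 1007 towards fibers and 900 towards epithelium, so the direction with more genes depends on the floor. Those shares are given as background only, because the genes were chosen on this same difference.

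Promoter sequences are shown for the pair with the largest differences towards fibers, Igf2 and Irs1, and for the pair of binding protein genes higher in epithelium, Igfbp5 and Igfbp4, so that the start regions of genes that differ in opposite directions can be read side by side. They are RefSeq sequences of build GRCm38.p6, each running 5′ to 3′ along the gene from 250 bases before its start to 50 bases after. Igf2 has 4 annotated starts, and the one farthest downstream is printed. The array does not tell which start was used. The Igf2 window is chr7:142657447-142657746 on the minus strand, that of Irs1 is chr1:82291390-82291689 on the minus strand, that of Igfbp5 is chr1:72874816-72875115 on the minus strand and that of Igfbp4 is chr11:99040994-99041293 on the plus strand. Capitals mark matches to the motifs described after the sequences.
Igf2: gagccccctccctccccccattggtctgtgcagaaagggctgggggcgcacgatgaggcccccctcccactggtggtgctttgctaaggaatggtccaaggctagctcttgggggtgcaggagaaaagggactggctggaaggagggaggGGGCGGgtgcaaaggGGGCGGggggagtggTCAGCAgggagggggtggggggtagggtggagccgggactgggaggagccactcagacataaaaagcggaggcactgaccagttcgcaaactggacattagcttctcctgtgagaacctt
Irs1: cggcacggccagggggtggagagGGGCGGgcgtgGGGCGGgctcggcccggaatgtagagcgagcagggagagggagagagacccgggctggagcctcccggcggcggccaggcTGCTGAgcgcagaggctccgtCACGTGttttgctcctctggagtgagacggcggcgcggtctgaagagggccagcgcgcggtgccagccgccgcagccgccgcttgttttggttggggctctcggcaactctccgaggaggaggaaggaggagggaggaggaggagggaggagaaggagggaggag
Igfbp5: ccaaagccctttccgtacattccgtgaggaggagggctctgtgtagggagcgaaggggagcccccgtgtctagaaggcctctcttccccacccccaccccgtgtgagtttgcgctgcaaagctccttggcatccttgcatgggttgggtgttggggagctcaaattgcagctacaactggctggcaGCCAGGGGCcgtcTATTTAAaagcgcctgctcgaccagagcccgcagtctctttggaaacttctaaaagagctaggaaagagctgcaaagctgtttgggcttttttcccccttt
Igfbp4: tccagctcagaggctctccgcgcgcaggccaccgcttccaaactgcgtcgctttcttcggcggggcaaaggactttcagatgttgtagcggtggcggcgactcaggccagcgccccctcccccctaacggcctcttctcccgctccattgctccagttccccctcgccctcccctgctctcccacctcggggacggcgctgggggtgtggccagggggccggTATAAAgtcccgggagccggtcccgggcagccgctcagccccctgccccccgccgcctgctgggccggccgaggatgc

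The motifs were chosen after the sequences had been read, and both strands were searched. They were the GC box GGGCGG, the TATA box TATAAA, the related TATTTAA, the E-box CACGTG, the AP-2 type sequence GCCNNNGGC, the sequence TGCTGA, a core of the Maf recognition element, and the Foxo type sequence GTAAACA. The printed Igf2 and Irs1 windows each held 2 GC boxes and 1 TGCTGA and neither TATAAA nor TATTTAA. Other related runs, such as cataaaaa in the printed Igf2 window, were not searched for. The 3 Igf2 windows not printed held 1, 0 and 0 GC boxes and no TGCTGA or TATA-type sequence, and 1 of them held GCCNNNGGC, so what Igf2 shares with Irs1 holds for the printed start alone. In Igf2 the GC boxes began 100 and 85 bases before the start and the TGCTGA match, on the opposite strand, began 70 bases before it. In Irs1 the GC boxes began 227 and 216 bases before the start, TGCTGA 136 bases and an E-box 115 bases before it. The 2 printed promoters of genes higher in epithelium held no GC box. TATAAA was found 28 bases before the start of Igfbp4 and TATTTAA 51 bases before that of Igfbp5. This contrast depends on which sequences were chosen for the search. Igfbp5 also held GCCNNNGGC 64 bases before its start. The matches in the printed windows did not overlap.

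Over 32851 promoter windows of the same length, GGGCGG was found in 35.7%, TGCTGA in 19.5%, TATAAA in 13.6%, TATTTAA in 4.51%, GCCNNNGGC in 16.6%, CACGTG in 7.15% and GTAAACA in 3.65%. The printed windows had a GC content of 63.3% for Igf2, 71.3% for Irs1, 56.3% for Igfbp5 and 71.3% for Igfbp4, against a median of 52.7% over all windows. The receptor promoters, not printed, held GC boxes as well, 3 in Igf2r and 2 in Igf1r, although both genes were higher in epithelium. A GC box was thus found in promoters of genes that differed in either direction. A match is a run of letters in a window and no measurement of a factor.

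The intensities behind these differences were deposited as background-subtracted whole numbers, and the arrays were quantile normalized here. The floor, above which a probe counts as measured, was 32 on the fibers array and 44.5 on the epithelium array. It is the 95th percentile of 1580 probes for olfactory receptors and other genes with no known role in lens. A gene is represented by its brightest probe, and log2 ratios are fibers over epithelium. Where 1 array passed the floor and the other did not, the ratio is a bound, in which the floor stands in for the dim value, written "at least". The tissue labels were checked on markers. All 8 lens fiber genes with a named probe, crystallins and membrane proteins among them, reached 2-fold towards fibers, with a median log2 ratio of 3.27. On the epithelium array 6 of these 8 were also above the floor, with Mip highest at 3206.5 and Cryaa at 275.5. Of the epithelium markers, 3 were above the floor on both arrays, Cdh1 at 164 in fibers. Of 5 markers of the epithelium, 4 reached 2-fold towards epithelium and Foxe3, a transcription factor of the lens epithelium named after its values were seen, was below the floor on both arrays.

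Among the ligands, Igf2 read 1640.5 in fibers and 153.5 in epithelium, a log2 ratio of 3.42. It was measured by 1 probe, well above the floor on both arrays. The epithelium signal of that probe was 9.36% of its fibers signal. By the size of its ratio towards fibers, Igf2 stood at rank 9 of the 2986 genes above the floor on both arrays. Here and below, the 2693 genes that have only a bound are not ranked. Igf1, the other ligand, had 2 probes. The brighter read 30 in fibers and 20 in epithelium, and the other read -2 in fibers and -3 in epithelium. Neither passed the floor on either array, so Igf1 has no ratio.

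Among the receptors, Igf2r read 135 in fibers and 496.5 in epithelium on its brighter probe, a log2 ratio of -1.88. Its second probe read 14 in fibers and 7 in epithelium, below the floor on both arrays. Both probes are annotated to the same RefSeq transcript, so the difference rests on 1 of 2 probes. Igf1r had 4 probes. The brightest read 41.5 in fibers and 153.5 in epithelium, a log2 ratio of -1.89, with the fibers value close to the floor. The other Igf1r probes read 26, 13 and 3 in fibers and 15, 10 and 3 in epithelium, all below the floor. The bright Igf1r probe is annotated to a cDNA accession and not to the RefSeq transcript, while 2 of the dim ones are annotated to the RefSeq transcript. The Igf1r difference therefore describes that 1 probe, and Igf1r was under 2-fold with the mean of its probes (a bound of -0.50) and with the floor at the 99th percentile (a bound of -0.93). In the order of ratios towards epithelium, Igf1r stood at rank 148 and Igf2r at rank 150 of 2986.

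Among the binding proteins, Igfbp5 had 3 probes and all were above the floor on both arrays. Its brightest probe read 101 in fibers and 1612 in epithelium, a log2 ratio of -4.00. The second read 50.5 in fibers and 753.75 in epithelium (-3.90), and the third read 38 in fibers and 468.75 in epithelium (-3.62). The 3 probes thus gave folds between 12.3 and 16.0 in the same direction, although they differed in brightness. The fibers signal of the brightest probe was 6.27% of its epithelium signal. No gene above the floor on both arrays had a larger ratio towards epithelium, where Igfbp5 stood at rank 1 of 2986.

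Igfbp4 had probes that disagreed. The brighter probe read 2 in fibers and 100 in epithelium, at least 3.13-fold higher in epithelium. The second read 34 in fibers, just above that array's floor, and 13 in epithelium, and had no direction, because 34 is under the floor of the epithelium array. With the mean of both probes, Igfbp4 was a bound of -0.82, under 2-fold. Igfbp3 read 45.5 in fibers and 16 in epithelium on its brighter probe, a bound of at least 1.02-fold that lies at the floor of the epithelium array, and its second probe read 19 in fibers and 12 in epithelium. Igfbp2 was below the floor with both probes, at 5 and -1 in fibers and at 2 and -4 in epithelium. Igfbp2 and Igfbp5 are neighbouring genes in the RefSeq annotation, and of this pair Igfbp5 alone gave signal above the floor.

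Among the adaptors, Irs1 read 1242.5 in fibers and 82.5 in epithelium on its 1 probe, a log2 ratio of 3.91. The epithelium signal was 6.64% of the fibers signal. Irs1 stood at rank 2 of 2986 towards fibers. With the floor at the 99th percentile, 110.5 on the epithelium array, Irs1 had only a bound of 3.49. Irs2, the adaptor closest to it in function, read 27 in fibers and 3 in epithelium on its 1 probe, below the floor on both arrays, and has no ratio. The adaptor pair thus held one of the largest ratios towards fibers and one unmeasured gene.

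**Figure D1:**
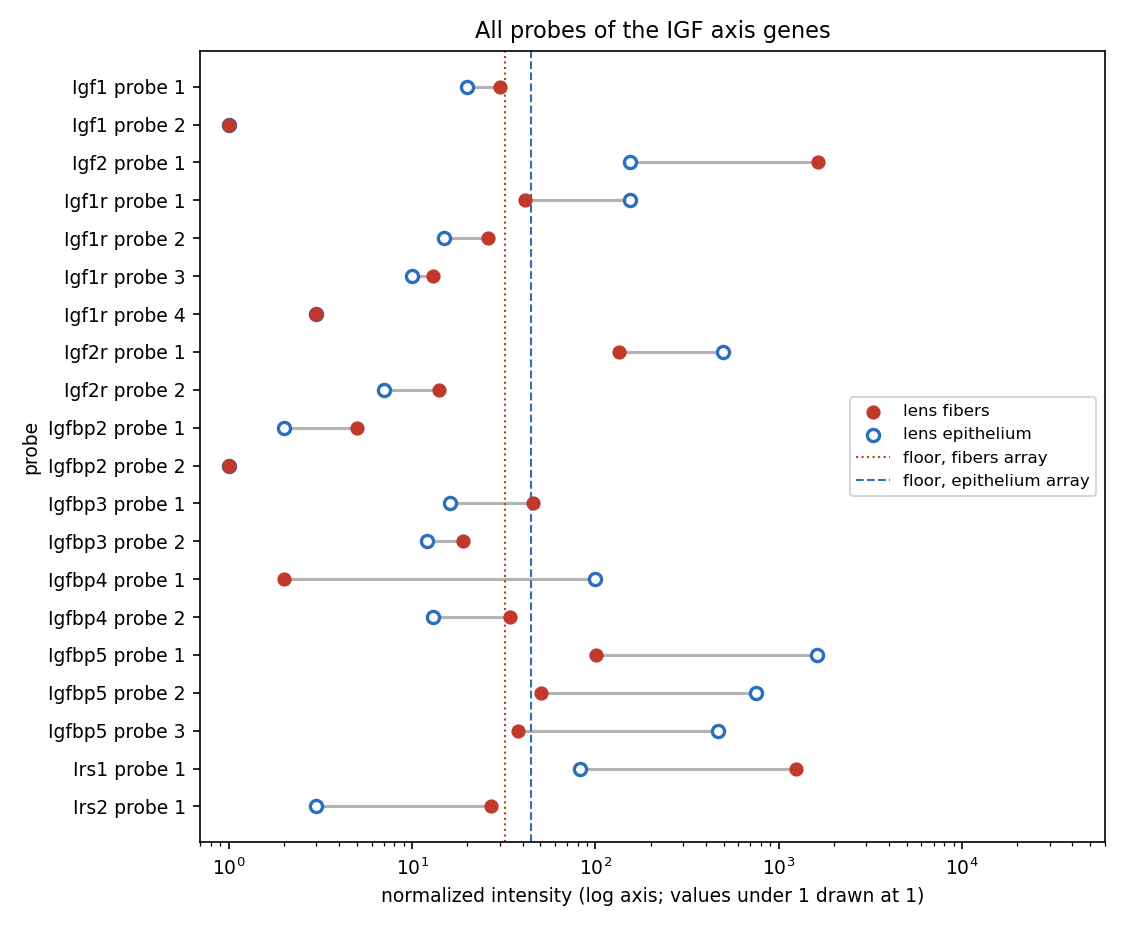
Normalized intensity (log axis, values under 1 drawn at 1) of all 20 probes of the IGF axis genes, with lens fibers as filled points and lens epithelium as open points. Vertical lines mark the floors, 32 for fibers and 44.5 for epithelium. The Igf2 and Irs1 probes lie far to the right in fibers and the 3 Igfbp5 probes far to the right in epithelium, while 10 of the 20 probes are below the floor on both arrays.

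The spread between probes of the same gene gives a scale for disagreement between probes. All probes were read on the same 2 arrays, so this spread holds no variation between samples. Genes with only 1 probe above the floor on both arrays, such as Igf1r and Igf2r, do not enter it. For 472 genes with at least 2 probes above the floor on both arrays, the log2 ratios of the 2 brightest probes differed by a median of 0.51, by 1.84 at the 90th percentile, and had opposite signs in 25.4%. Of the 165 such genes whose brightest probe differed by 2-fold or more, the second probe had the same sign in 129 (78.2%) and also reached 2-fold in 77. The 3 Igfbp5 probes lay within that median difference of each other. For Igf2 and Irs1, which had 1 probe each, no such check was possible. The 32 silent-gene probes above the floor on both arrays had a median log2 ratio of -0.49 with an SD over probes of 0.84, and ranged from -2.31 to 2.36. Igf1r at -1.89, Igf2r at -1.88 and the bound of Igfbp4 at -1.64 lay within that range. Igf2 at 3.42, Irs1 at 3.91 and Igfbp5 at -4.00 lay outside it.

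**Figure D2:**
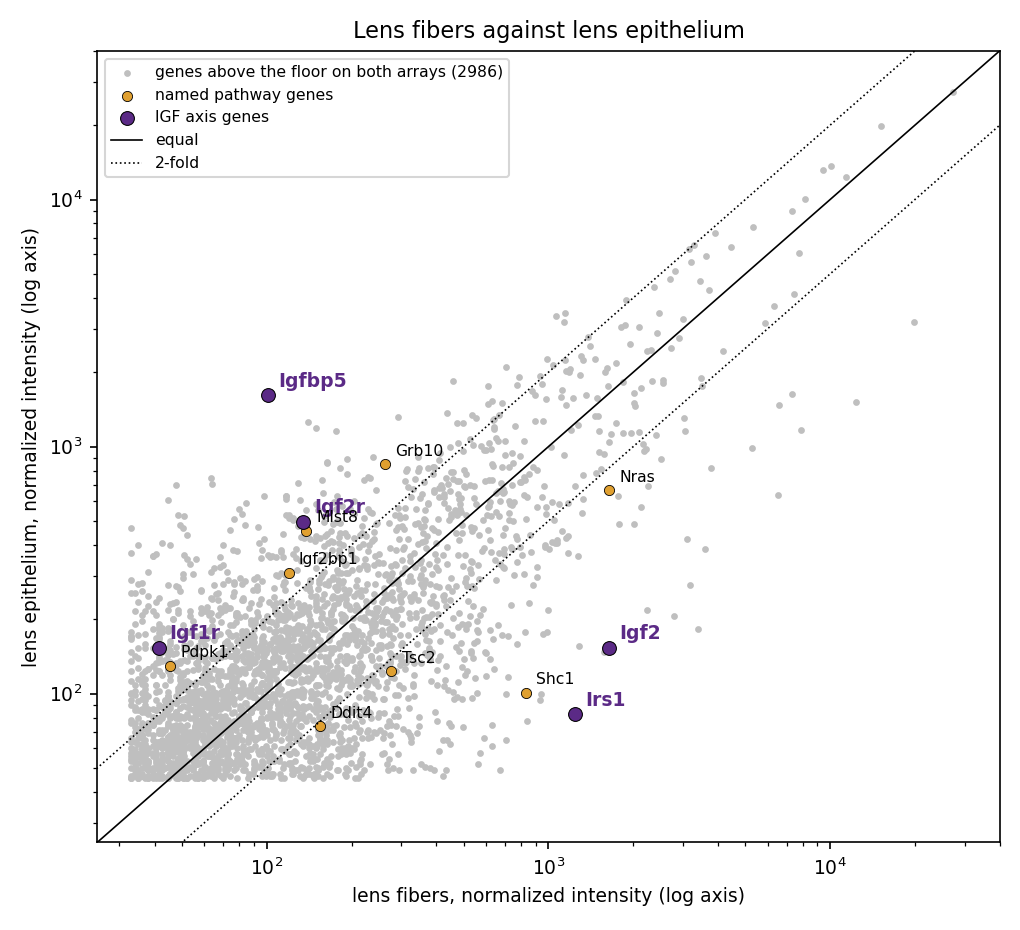
Normalized intensity in lens fibers (horizontal, log axis) and lens epithelium (vertical, log axis) for the 2986 genes above the floor on both arrays, with the IGF axis genes and named pathway genes marked. The solid line marks equal values and the dotted lines 2-fold. Igfbp5 lies at the upper left edge of these genes, and Igf2 and Irs1 at the lower right edge.

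By the 2 intensities, the genes nearest to Igfbp5 were Sfrp2 (139.5 in fibers and 1256 in epithelium), Uhrf1 (149 in fibers and 1194 in epithelium) and Mis18a (175.5 in fibers and 1160 in epithelium). Their distances on the log2 scale were 0.59, 0.71 and 0.93. With 2 arrays, likeness means only that both values were close.

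Scaling of the arrays changed the size of these ratios. Igf2, Irs1, Igf1r, Igf2r, Igfbp4 and Igfbp5 kept their direction, while the bound of Igfbp3 lost its direction with housekeeping genes as the scale and in the values as deposited. The 11 housekeeping genes above the floor on both arrays had a median log2 ratio of 0.85 in the deposited values. They went both ways, 8 higher in fibers and 3 in epithelium, between -0.72 and 3.17. With the arrays scaled to them, the median over all measured genes was -0.60, against 0.00 as reported. Igf2 then stood at 2.53 and Irs1 at 3.08, and Igfbp5 at -4.88, Igf1r at -2.76, Igf2r at -2.72 and the bound of Igfbp4 at -2.49. The scale depends on which of these genes enter it. With the 16 at an intensity of 10 or more on both arrays, the median was 1.25, Igf2 stood at 2.13, Irs1 at 2.68 and Igfbp5 at -5.28. This wider set was computed first, and the set of 11 was adopted after its value had been seen. With either set, 2 of the IGF axis genes reached 2-fold towards fibers and 4 towards epithelium. Over all genes, with the 11 genes as the scale, 286 reached 2-fold towards fibers and 2756 towards epithelium, against 1007 towards fibers and 1225 towards epithelium as reported. Which scaling is nearer to the RNA content of the tissues cannot be told from 2 arrays.

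**Figure D3:**
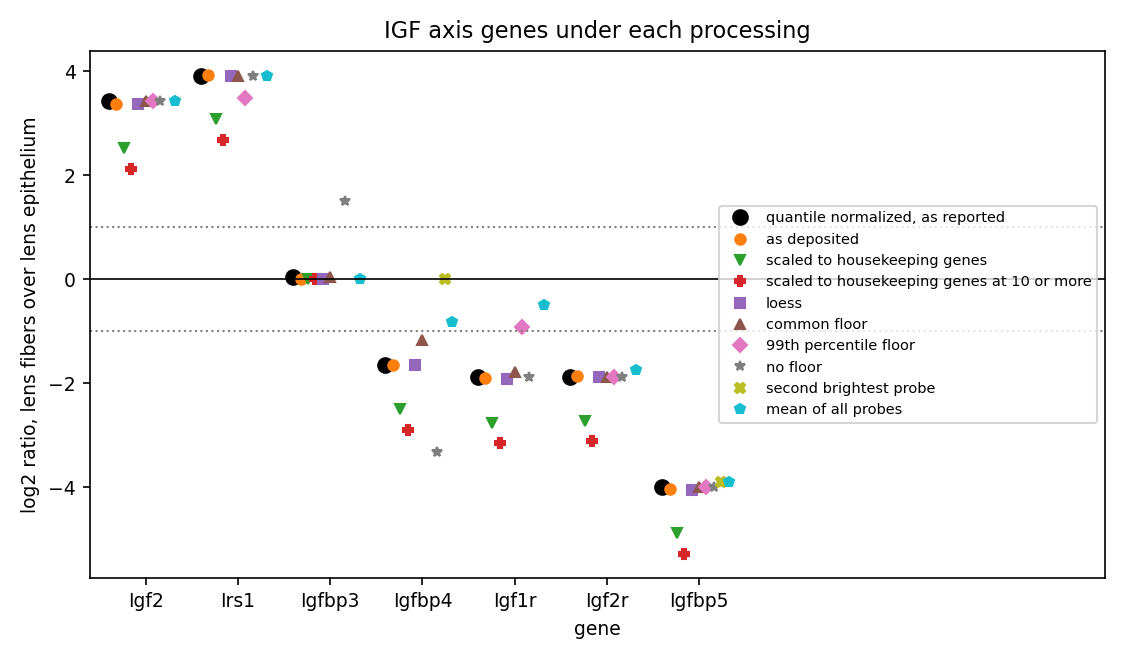
Log2 ratio of lens fibers over lens epithelium for the 7 measured IGF axis genes under each processing, with the reported value in black and dotted lines at 2-fold. Igf2 and Irs1 stay above the upper line and Igf2r and Igfbp5 below the lower line wherever they have a value, while Igf1r and Igfbp4 come inside the lines under some settings.

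The wider pathway was described with 6 lists of 80 genes, of which 66 had a named probe, 38 passed the floor on 1 array or both and 28 were below it on both. The lists were chosen with earlier results of these arrays known. Of the 38, 6 reached 2-fold towards fibers and 9 towards epithelium, with a median log2 ratio of 0.12, against 0.00 over all measured genes. As 15.6% of all measured genes reached 2-fold towards fibers and 19% towards epithelium, these counts and those of each list below are descriptions, and nothing is read from them about the pathway. When scaled to the 11 housekeeping genes, the counts were 2 towards fibers and 15 towards epithelium.

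Genes that act beside the receptors differed in both directions. Shc1, an adaptor that links receptor tyrosine kinases to Ras, read 832 in fibers and 101 in epithelium, 8.24-fold higher in fibers. The other Shc1 probes were below the floor on both arrays, so that the value rests on 1 of 4 probes. Grb10, an imprinted adaptor that inhibits signalling from the insulin and IGF1 receptors, read 263 in fibers and 850.75 in epithelium, 3.23-fold higher in epithelium, while a second probe gave a bound of -0.87, under 2-fold, and the third was below the floor. Socs2, a suppressor of growth hormone signalling, read 3 in fibers and 70 in epithelium, at least 2.19-fold higher in epithelium. Its other probe, at 12 in fibers and 15 in epithelium, was below the floor, and with 1 common floor the bound was -0.65, under 2-fold. Of the 15 genes of this list with a named probe, 8 were measured, 1 reached 2-fold towards fibers and 2 towards epithelium, against 15.6% and 19% of all measured genes, and the median log2 ratio was 0.07. The insulin receptor gene Insr, named after its values were seen, read 53.5 in fibers and -1 in epithelium, at least 1.20-fold higher in fibers, and its other 2 probes were below the floor.

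Of 11 other binding protein and IGF release genes with a named probe, 4 were measured. Adamts1, a secreted metalloprotease of the extracellular matrix, read 420 in fibers and 10 in epithelium, at least 9.44-fold higher in fibers, although its other 2 probes were below the floor. Igfbp7, a low-affinity IGF binding protein named after its values were seen, read 542 in fibers and 469.75 in epithelium, a log2 ratio of 0.21. Of the 4, 1 reached 2-fold towards fibers and 0 towards epithelium, against 15.6% and 19% of all measured genes.

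Of 18 PI3K and Akt genes with a named probe, 8 were measured, of which 1 reached 2-fold towards fibers and 5 towards epithelium, against 15.6% and 19% of all measured genes, with a median log2 ratio of -1.94. Among the 8 values, 7 were bounds, and Gsk3b and Pdpk1, which are among the 5, lay towards fibers on their second probe. Akt2, a kinase of the insulin response, read 1 in fibers and 266.5 in epithelium, at least 8.33-fold higher in epithelium, and its second probe read -5 in fibers and 191.5 in epithelium. Inppl1, the lipid phosphatase SHIP2, read 7 in fibers and 203.5 in epithelium, at least 6.36-fold higher in epithelium, and its second probe read 3 in fibers and 198 in epithelium, while the third was below the floor on both arrays. Pik3r1, the p85 alpha regulatory subunit of PI3K, read 22 in fibers and 164.5 in epithelium, at least 5.14-fold higher in epithelium, and another probe read 11 in fibers and 174.5 in epithelium. The other 2 of the 4 Pik3r1 probes were below the floor on both arrays, and with the mean of all probes the bound was -1.36. The probes of these genes that passed the floor on an array had the same direction within each gene.

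Pik3r3, the p55 gamma regulatory subunit of PI3K, read 153.5 in fibers and 24 in epithelium, at least 3.45-fold higher in fibers, and its other probe was below the floor at 7 in fibers and 5 in epithelium. It was under 2-fold when scaled to the 11 housekeeping genes (a bound of 0.92), with the mean of probes (0.85) and with the floor at the 99th percentile (0.47). For Gsk3b, a kinase inhibited by Akt, the probes disagreed: the brightest read 19 in fibers and 224.5 in epithelium, at least 7.02-fold higher in epithelium, and the second read 118.5 in fibers and 61.5 in epithelium. Pdpk1, the kinase that activates Akt, read 45.5 in fibers and 130 in epithelium (2.86-fold higher in epithelium), and its second probe read 51 in fibers and -1 in epithelium. The directions of Gsk3b and Pdpk1 thus depend on the probe, and Pdpk1 was under 2-fold with the mean of probes (-0.42) and with the floor at the 99th percentile (a bound of -0.69). Akt1 and the Foxo transcription factor genes Foxo1, Foxo3, Foxo4 and Foxo6 were below the floor on both arrays, and are named after their values were seen.

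Of 15 mTOR arm genes, 12 were measured, of which 2 reached 2-fold towards fibers and 1 towards epithelium, against 15.6% and 19% of all measured genes, with a median log2 ratio of 0.12. Tsc2, a subunit of the complex that holds mTOR back, read 277 in fibers and 123 in epithelium (2.25-fold), and Ddit4, a stress-induced inhibitor of mTOR, read 155 in fibers and 74 in epithelium (2.09-fold). Mlst8, a subunit of the mTOR complexes, read 137.5 in fibers and 457 in epithelium, 3.32-fold higher in epithelium. A second Mlst8 probe read 112.5 in fibers and 189 in epithelium, 1.68-fold and thus under 2-fold, and the third was below the floor. A second Tsc2 probe read 203.25 in fibers and 101 in epithelium, in the same direction, and the third was below the floor. With the 11 housekeeping genes as the scale, both inhibitors were under 2-fold, at log2 ratios of 0.31 for Tsc2 and 0.22 for Ddit4, and with the 16 they changed sign, to -0.089 for Tsc2 and -0.18 for Ddit4. Ddit4 was also under 2-fold with the floor at the 99th percentile (a bound of 0.49).

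In the Ras and MAP kinase arm, 5 of 11 genes had a named probe, and 4 were measured. Nras, a Ras GTPase, read 1635 in fibers and 667.75 in epithelium, 2.45-fold higher in fibers. Its other 2 probes were below the floor, so the value rests on 1 of 3 probes, and its log2 ratio was 0.42 when scaled to the 11 housekeeping genes. Igf2bp1, which binds Igf2 mRNA among others, read 119.5 in fibers and 308.5 in epithelium, 2.58-fold higher in epithelium, but its second brightest probe gave a log2 ratio of 0.11, and with the mean of its 5 probes the ratio was -0.64, under 2-fold. H19, the noncoding RNA gene of the Igf2 locus, had no named probe and was not analysed here.

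**Figure D4:**
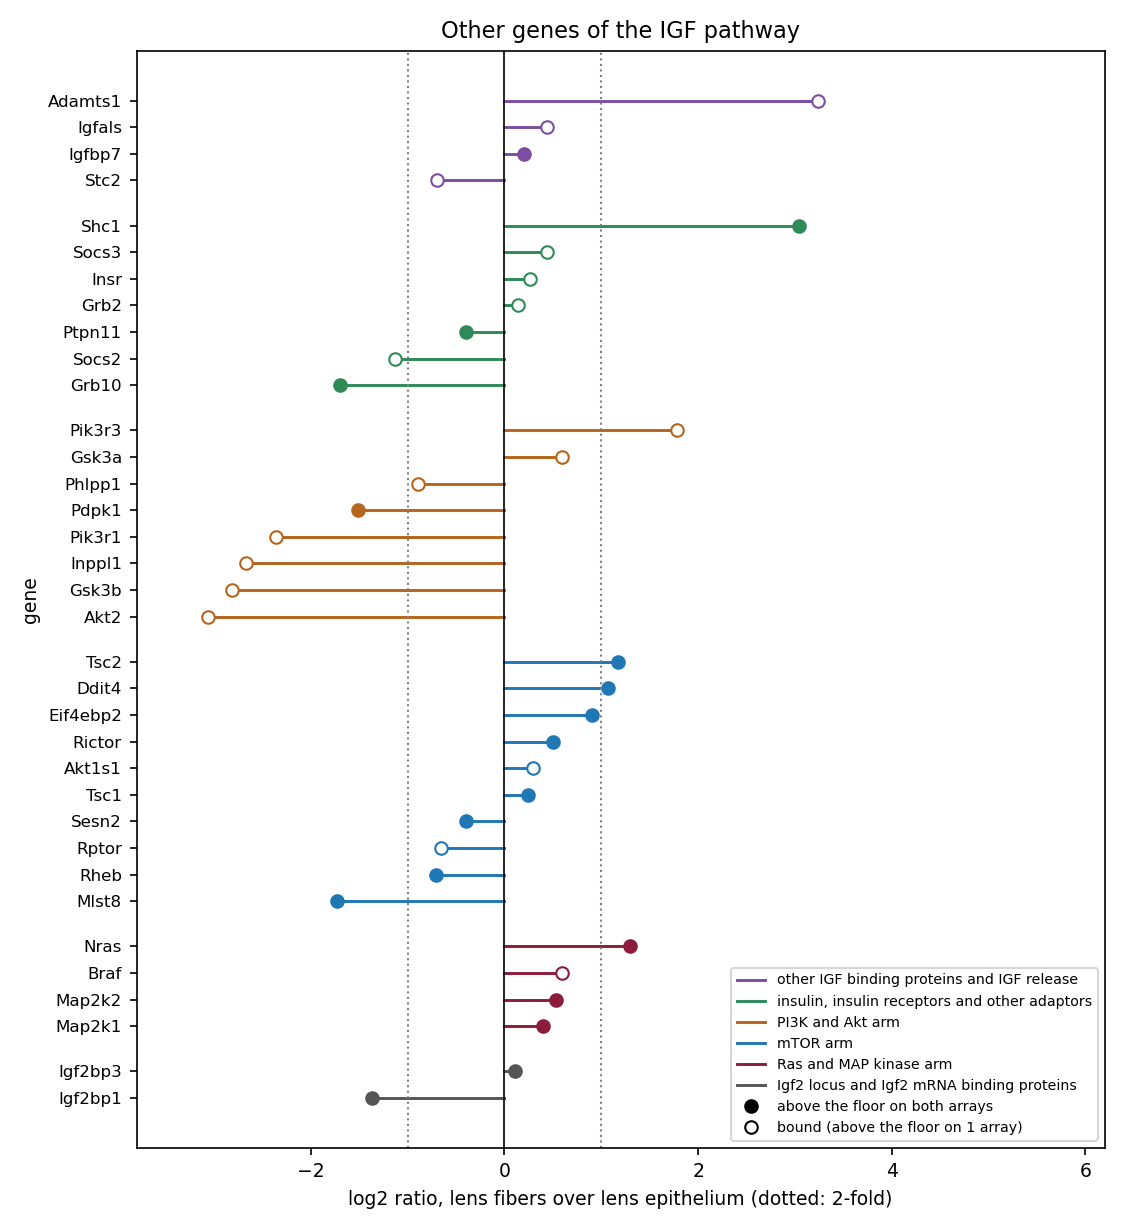
Log2 ratio of lens fibers over lens epithelium for the pathway genes above the floor on at least 1 array and with a direction, ordered by list and by ratio, with dotted lines at 2-fold. Filled points are ratios and open points are bounds. Adamts1 and Shc1 lie farthest towards fibers, and 5 of the 8 PI3K and Akt genes lie beyond 2-fold towards epithelium on their brightest probe.

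In whole tissue, fewer cells of a type and less RNA per cell cannot be told apart, and IGF axis genes are also expressed in mesenchyme and blood vessels. Of 47 markers of 7 other cell types with a named probe, 36 were below the floor on both arrays, 2 reached 2-fold towards epithelium and none towards fibers. Of 11 periocular mesenchyme genes, 2 were measured. Tfap2b read 36 in fibers and 208.5 in epithelium, and Vim, which lens cells also express, read 89 in fibers and 73 in epithelium. The collagen genes Col1a1, Col1a2 and Col3a1 of this list read 0, 13 and 2 in fibers and -5, 31 and 21 in epithelium, all below the floor. These collagen genes and other markers below the floor are named after their values were seen. The summed level of the mesenchyme list was 160 in fibers and 357.5 in epithelium, of which Tfap2b alone gave 36 in fibers and 208.5 in epithelium. Sums here and below include genes below the floor.

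Of 9 endothelium genes, Tek alone was measured, at 83.5 in fibers and 7 in epithelium, while Pecam1 and Cdh5 read -2 and 4 in fibers and 3 and 4 in epithelium. The summed level was 115.5 in fibers and 122 in epithelium. Of 6 retina genes, Sfrp2 alone was measured, and the sums of 162.5 in fibers and 1318.5 in epithelium were mostly Sfrp2. Among the other lists, the measured genes with the highest signal were Hbb-y of the erythroid list (124 in fibers and 121.5 in epithelium), Mitf of the pigment epithelium list (76.5 in fibers and 64 in epithelium), Aif1 of the macrophage list (34 in fibers and 54.5 in epithelium) and Krt5 of the surface ectoderm and cornea list (65 in fibers and 49 in epithelium). Of the measured genes in these lists, Hba-a1, Pmel and Csf1r read 76.5, 11 and 36 in fibers and 15, 56 and 30 in epithelium. Sums were 200.5 in fibers and 131.5 in epithelium for 5 erythroid genes, 116.5 in fibers and 170 in epithelium for 6 pigment epithelium genes, 79 in fibers and 91.5 in epithelium for 5 macrophage genes, and 92 in fibers and 103 in epithelium for 5 surface ectoderm and cornea genes. The part of Tfap2b-positive or Sfrp2-positive cells in the Igfbp5, Igf1r and Igf2r signal was not tested. Nor was the part of fiber cells in the epithelium signal of Igf2 and Irs1 tested.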

How the data were processed

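Lens fibers and lens epithelium were measured with 1 array each, so groups hold 1 sample. The authors deposited 1 intensity per probe for 45281 probes, all whole numbers on a linear scale. Negative values, down to -16, show that a background had been removed before deposit. The method, any scaling and the software are not given in sources used here. Per the labels' protocols, RNA was column-purified and biotin-labelled.

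Quantile normalization was done on linear values with limma 3.58.1 in R 4.3.3, which hides any difference in total RNA. Probes were named through the platform annotation: 34885 had 1 symbol, 18 several and 10378 none, and symbols were updated through the gene ID, found in the GRCm38.p6 gene table for 34807. The member genes and lists were chosen with earlier results of these data known. Text names all members, the pathway genes at 2-fold or more (up to 6 a list), genes nearest to the member with the largest ratio, the markers of fibers and epithelium by count, and the measured markers of other cells, by range with the largest named; others were named after their values were seen. No p-value was computed. Steps were tested on simulated data in which only probes well above the floor were changed, so that test does not cover values near the floor. Promoter sequences are from RefSeq; all 10 members matched. Alternatives changed the normalization, floor, probe rule and fold threshold. After the data were seen, the housekeeping genes that enter the scaling were settled, as was the limit beyond which a ratio counts as moved, the median difference of 0.51 between probes of a gene.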

Additional observations from a re-analysis of the deposited data

How the results depend on the processing

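No paired analysis was possible because each group holds 1 array. Igf2, Irs1, Igf2r and Igfbp5 kept their direction and their side of 2-fold under every alternative that gave them a value. Igf2 and Irs1 have 1 probe each, so the probe rules could not change their values. Igf2 also stayed at 3.42 under each choice of floor, so for it only the changes of normalization were a check. With the second brightest probe, of the IGF axis genes only Igfbp4 and Igfbp5 had a value. The values as deposited and the loess fit moved no IGF axis ratio by more than the median difference between probes of a gene, and nor did the common floor, although Igfbp3 lost its direction in the values as deposited. With the common floor, 1007 genes reached 2-fold towards fibers and 900 towards epithelium. Scaled to the 11 housekeeping genes above the floor, the log2 ratios were 2.53 for Igf2, 3.08 for Irs1, -2.76 for Igf1r, -2.72 for Igf2r, -2.49 for Igfbp4 and -4.88 for Igfbp5, with a median of -2.49. The counts at 2-fold were then 2 towards fibers and 15 towards epithelium in the pathway lists, and 286 towards fibers and 2756 towards epithelium over all genes. The variant with the 16 housekeeping genes at 10 or more was the first computed. The floor was required after its median of 1.25 had been seen, and the variant was listed as an alternative after seeing the data. It gave 2.13 for Igf2, 2.68 for Irs1, -3.16 for Igf1r, -3.12 for Igf2r, -2.89 for Igfbp4 and the median, and -5.28 for Igfbp5, with 2 pathway genes towards fibers and 18 towards epithelium, and 156 of all genes towards fibers and 3226 towards epithelium. Tsc2 and Ddit4 then changed sign, to -0.089 and -0.18.

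With the floor at the 99th percentile, Igf1r was a bound of -0.93, the median was -0.93, 2 IGF axis genes reached 2-fold towards epithelium, and the counts over all genes were 346 towards fibers and 468 towards epithelium. With no floor and intensities under 10 set to 10, Igfbp3 was at 1.51 and Igfbp4 at -3.32. All 10 genes then had a value, 4 reached 2-fold towards fibers, and the median turned to 0.29, because genes near background enter it. The pathway counts were 14 towards fibers and 16 towards epithelium, and those over all genes 2551 towards fibers and 2577 towards epithelium.

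With the second brightest probe, Igfbp4 had no direction (entered as 0), and 0 IGF axis genes reached 2-fold towards fibers and 1 towards epithelium. The pathway counts were 1 towards fibers and 4 towards epithelium, and those over all genes 220 towards fibers and 256 towards epithelium. Fewer genes have a second probe, and some second probes were below the floor. Of the IGF axis genes, 7 had a second probe, but those of Igf1, Igf1r, Igf2r, Igfbp2 and Igfbp3 were below the floor on both arrays. Under this probe rule, Gsk3b was at 0.95, Pdpk1 at 0.20 and Igf2bp1 at 0.11, opposite to the values above. With the mean of all probes, Igf1r was at -0.50, Igfbp4 at -0.82 and the median at -0.50, with 2 genes at 2-fold towards epithelium, and the counts over all genes were 666 towards fibers and 765 towards epithelium. At 1.5-fold, the counts over all genes were 1586 towards fibers and 2009 towards epithelium. Of 127 values of 15 pathway genes under the alternatives, 69 moved by less than the probe difference, 53 moved by more in the same direction or to no direction, and 5 changed sign.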
